A study of Mus musculus with 2 samples.

Results

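The respiratory chain of the inner mitochondrial membrane is built from proteins of both genomes, and the nuclear-encoded part was examined here in the chromatin of the mouse adrenal gland. The genes were all protein-coding genes whose symbols begin with Ndufa, Ndufb, Ndufc, Ndufs or Ndufv, with Sdh followed by a, b, c or d, with Uqcr, or with Cox4, Cox5, Cox6, Cox7 or Cox8. The rule found 76 of 21911 protein-coding genes off the mitochondrial genome. They were 7 core subunits, 29 accessory subunits and 8 assembly factors (the Ndufaf genes) of complex I, 4 subunits of complex II, 8 of complex III and 20 of complex IV. Ndufa4 and its relative Ndufa4l2 were placed with complex IV, of which the product of Ndufa4 is now known to be a subunit.

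The study is a DNase-seq experiment on adrenal glands of female B6CASTF1/J mice, an F1 hybrid strain, at 36 days of age, with 2 libraries that form 1 group. By the labels they are biological replicates 1 and 2, from animals with different numbers and a common donor record. In DNase-seq, isolated nuclei are treated with the nuclease DNase I, and open chromatin such as an active promoter appears as a peak of cuts. Nothing in the series sets a second tissue, genotype or treatment against the glands, so that genes were compared within a library and the libraries with each other.

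Electrons from NADH enter the chain at complex I and those from succinate at complex II. Complex III passes them to cytochrome c and complex IV from there to oxygen, and complexes I, III and IV pump protons that drive ATP synthase. In the adrenal cortex mitochondria also hold steps of steroid hormone synthesis, and in the chromaffin cells of the medulla they supply energy for the storage of catecholamines. Several small subunits of complex IV exist in a widely used form and in a form known mainly from heart and skeletal muscle, brown fat, testis, lung or hypoxic cells.

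The measure for each gene was the height of its tallest peak that reached within 1 kb of any annotated transcription start site, or 0 where there was none. Height is the authors' deposited signal, whose scaling is not stated, and it was used for ranking and comparison within a library. The peak lists held 157595 peaks in replicate 1 and 166206 in replicate 2, with median widths of 180 and 171 bp. Heights came in steps of 0.00934 and 0.00883. Taken as 1 tag in 1000000, which no source states, these steps put the depths at about 107022000 and 113298000 tags. Positions are on mm10. Values are given for replicate 1 and then replicate 2, and errors are SDs over the 2 libraries. With 1 group of 2 libraries no p-value was computed.

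Nearly all respiratory chain genes had an open promoter. A promoter peak was present at 71 of the 76 genes in replicate 1 (93.4%, against 68.6% of all protein-coding genes) and at 72 in replicate 2 (94.7%, against 69.6%). Every gene other than the 8 tissue-limited isoforms described below had a peak in both libraries. The median height of the 76 genes was 10.4 in replicate 1 and 14.9 in replicate 2, where all protein-coding genes had medians of 2.96 and 4.45. Among genes with a peak, the respiratory chain medians were 10.6 and 15.2 and those of all genes 6.98 and 10.2. Thus 69 and 68 of the genes lay above the median of all genes (50.0% in each library by construction) and 42 and 41 lay in the upper quartile (25.0%). In the upper decile, above 14.7 and 21.7, there were 10 and 11 of the genes (9.99% of all genes in each library), a share near that of all genes. The tallest respiratory chain promoter reached 19.8 and 30.4, while the tallest promoter of all genes reached 52.6 and 72.4.

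**Figure D1:**
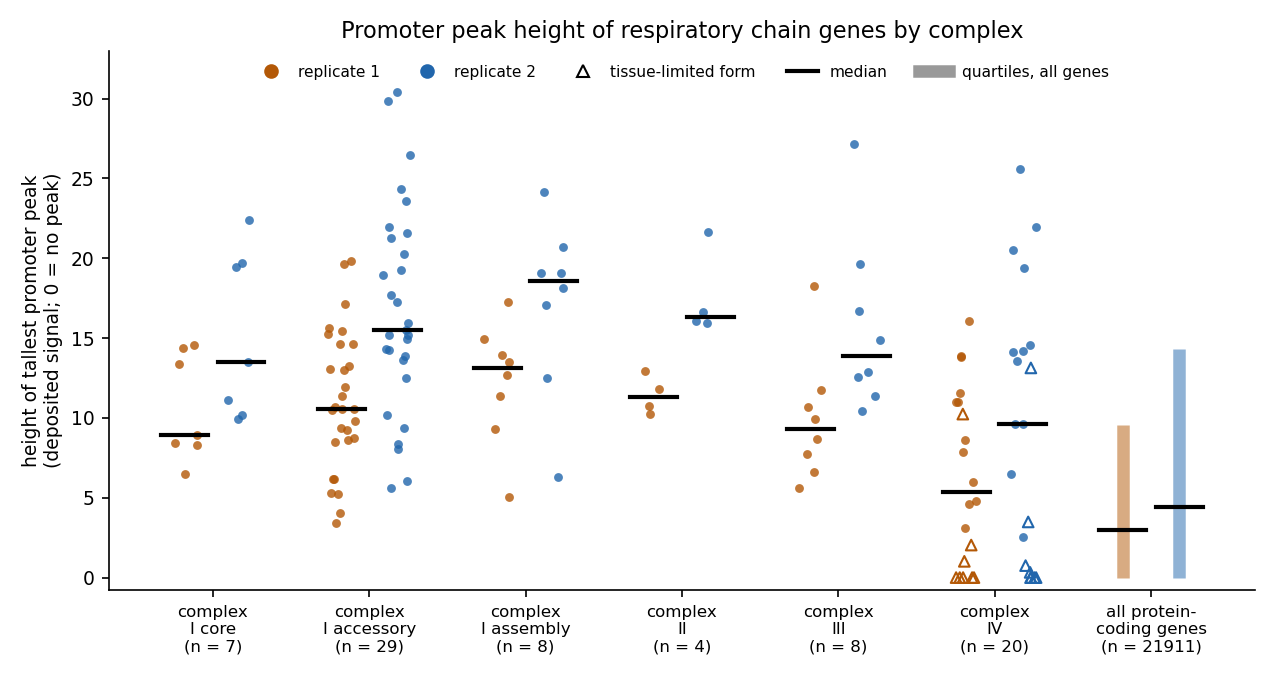
Height of the tallest promoter peak (deposited signal, linear axis, 0 where there was no peak) for each respiratory chain gene, by complex and library, with medians as black lines. Open triangles are the 8 tissue-limited isoforms, and the last column gives the median and quartiles of all 21911 protein-coding genes. The groups overlap widely, and the points at or near 0 are tissue-limited forms of complex IV.

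The medians of the complexes lay within the range of single genes. Complex I core subunits had a median of 8.92 and 13.5, its accessory subunits 10.6 and 15.5, and its assembly factors 13.1 and 18.6. Complex II had 11.3 and 16.3 and complex III 9.30 and 13.9. Complex IV stood lowest at 5.39 and 9.61, and at 9.80 and 14.2 without its 8 tissue-limited isoforms. Across the libraries these medians were 15.9 ± 3.89 for the assembly factors, 13.8 ± 3.56 for complex II, 13.0 ± 3.48 for the accessory subunits, 11.6 ± 3.23 for complex III, 11.2 ± 3.24 for the core subunits and 7.50 ± 2.98 for complex IV (SD, n = 2). The SDs hold the general shift between the libraries given further on, and within each library the assembly factors had the highest median of the 6 groups and complex IV the lowest. The range within the accessory subunits alone, from 3.41 to 19.8 in replicate 1 and from 5.60 to 30.4 in replicate 2, covered all 6 medians.

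Among the 7 core subunits of complex I, which carry out electron transfer from NADH to quinone, Ndufs1 and Ndufv1 were the tallest by the mean of both libraries. Ndufs1, which binds iron-sulfur clusters, reached 14.6 and 22.4. Ndufv1, the flavoprotein that binds NADH, reached 14.4 and 19.5. The lowest by the mean of both libraries were Ndufs3, a subunit of the peripheral arm, at 6.47 and 9.95, and Ndufs7, which holds the last iron-sulfur cluster before quinone, at 8.92 and 10.2. In replicate 1 Ndufv2, at 8.29, and Ndufs8, at 8.40, were lower than Ndufs7. Core subunit peaks were the broadest of the 6 groups, with a median of 260 bp in both libraries, against 200 and 180 bp for all 76 genes and 200 bp in both for all protein-coding genes.

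The 29 accessory subunits of complex I, which surround the core and support its stability and assembly, held the tallest promoters of the whole chain. Ndufa8, a subunit facing the intermembrane space, reached 19.8 and 29.9, and Ndufv3, a small subunit of the NADH-binding module, 19.7 and 30.4. They stood close together at the top in both libraries. The Ndufa8 peak lay at chr2:36049301-36049480 in both. The lowest accessory subunits were Ndufc2, a membrane arm subunit, at 3.41 and 5.60, and Ndufb11, another membrane arm subunit and X-linked, at 4.05 and 6.05. All 29 lay above the median of all genes in both libraries. The RefSeq promoter window of Ndufa8 (GRCm38.p6, chr2:36049289-36049588, minus strand, 250 bases before the start to 50 after) is shown because it belongs to the tallest pair and holds a match to the NRF1 motif next to the start. The capitals mark that match.
Ndufa8: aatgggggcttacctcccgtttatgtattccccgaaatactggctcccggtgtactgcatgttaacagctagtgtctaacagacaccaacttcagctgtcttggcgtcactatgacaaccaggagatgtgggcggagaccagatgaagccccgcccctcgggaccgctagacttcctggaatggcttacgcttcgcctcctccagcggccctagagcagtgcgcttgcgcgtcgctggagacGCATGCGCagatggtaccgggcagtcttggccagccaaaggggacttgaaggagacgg

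The 8 complex I assembly factors are not part of the finished enzyme. Ndufaf4 led them at 17.2 and 24.1, and second by the mean of both libraries was Ndufaf7, a methyltransferase of the mitochondrial matrix, at 12.7 and 20.7. In replicate 1 Ndufaf8 (15.0), Ndufaf5 (14.0) and Ndufaf3 (13.5) were taller than Ndufaf7. Ndufaf6 had 9.30 and 12.5, and Ndufaf1 was lowest at 5.06 and 6.30. Ndufaf1 lay below the medians of all 6 groups in both libraries, and its peak held 8 footprints in each, against a median of 4 over the genes with a peak.

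Complex II, or succinate dehydrogenase, is the only complex made wholly from nuclear genes, and in humans inherited variants in its genes cause tumours of the adrenal medulla and related paraganglia. Its 4 genes, the smallest group, had the narrowest range of the 6 in both libraries. Sdhb, the iron-sulfur subunit, had 12.9 and 21.7. Sdhc, a membrane anchor, had 11.8 and 16.6, Sdha, the flavoprotein that oxidises succinate, 10.8 and 16.1, and Sdhd, the other anchor, 10.3 and 16.0. The order was the same in both libraries. Sdhc, Sdha and Sdhd differed by less than the SD of any one of them (3.38, 3.75 and 4.04). Those SDs hold the general shift between the libraries, so that they do not measure the spread of a difference within a library. All 4 lay in the upper quartile of all genes in both libraries. Sdhb also had 6 and 7 peaks inside the gene and away from its start sites, the tallest at 6.04 and 9.24. Its promoter window (chr4:140961021-140961320, plus strand) is shown because it holds matches to both the NRF1 and the ETS motif, in capitals in that order.
Sdhb: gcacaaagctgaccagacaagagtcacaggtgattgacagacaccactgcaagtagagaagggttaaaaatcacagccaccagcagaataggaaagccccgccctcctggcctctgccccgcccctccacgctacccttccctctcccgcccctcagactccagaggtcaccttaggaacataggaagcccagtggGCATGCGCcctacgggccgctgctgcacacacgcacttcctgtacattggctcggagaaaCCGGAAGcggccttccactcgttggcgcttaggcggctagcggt

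In complex III the Rieske iron-sulfur protein Uqcrfs1 stood above the rest at 18.3 and 27.1, and Uqcrq, a small quinone-binding subunit, followed at 11.8 and 19.6. Uqcrb, another small subunit, had 6.63 and 10.4, and Uqcrc2, a core protein of the matrix side, 5.62 and 11.4. Within the complex, the gap between Uqcrfs1 and Uqcrq was the widest between neighbours in the order of either library. The window of Uqcrfs1 (chr13:30545267-30545566, minus strand) is shown as that of the tallest complex III gene, with its CRE match in capitals.
Uqcrfs1: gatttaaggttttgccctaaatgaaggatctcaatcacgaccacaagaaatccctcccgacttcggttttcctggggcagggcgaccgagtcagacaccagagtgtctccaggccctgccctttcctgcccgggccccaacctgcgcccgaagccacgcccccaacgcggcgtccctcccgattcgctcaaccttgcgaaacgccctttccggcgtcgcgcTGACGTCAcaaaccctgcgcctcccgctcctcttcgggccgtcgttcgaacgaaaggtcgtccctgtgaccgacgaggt

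Complex IV, which reduces oxygen to water, holds all 8 tissue-limited isoforms, and these are described after its widely used forms. Cox6a1, the widely used form of subunit VIa, reached 16.1 and 25.6, and Cox8a, the widely used form of subunit VIII, 13.9 and 21.9. Cox5b, a subunit on the matrix side, followed at 13.8 and 20.5. At the low end of the widely used forms were Cox7b at 3.12 and 2.56, Cox7c at 4.60 and 6.49 and Cox6b1 at 4.81 and 9.60, all small subunits. Cox7a2l, whose product joins complexes III and IV into supercomplexes, had 5.97 and 9.61. The window of Cox6a1 (chr5:115348909-115349208, minus strand) is shown as that of the tallest complex IV gene. Its capitals mark overlapping NRF1 matches on the 2 strands and then an ETS match on the opposite strand of the gene.
Cox6a1: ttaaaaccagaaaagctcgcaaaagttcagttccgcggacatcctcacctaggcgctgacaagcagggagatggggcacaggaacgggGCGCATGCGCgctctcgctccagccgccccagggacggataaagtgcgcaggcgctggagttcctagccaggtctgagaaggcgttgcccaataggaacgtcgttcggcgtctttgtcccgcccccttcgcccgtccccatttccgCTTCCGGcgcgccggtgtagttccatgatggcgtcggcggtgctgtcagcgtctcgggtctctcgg

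Of the 8 tissue-limited isoforms, Cox7a1 and Cox6b2 had a promoter peak in both libraries and the other 6 had a low peak in 1 library or none. Within the 1 kb window each was lower than its widely used counterpart in both libraries, in 8 of 8 pairs; with a window of 2000 bp Ndufa4l2 was not, as given with that gene. Their median was 0 and 0.163, against 8.62 and 14.2 for the 7 widely used counterparts. Whole glands were used, so that a low height in a few cells cannot be told apart from slight opening in many.

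Cox4i2, the form of subunit IV known from lung and hypoxic cells, had no peak in either library, against 8.62 and 14.2 for Cox4i1. Cox7b2 and Cox8c, both known from testis, also had none in either, while their counterparts Cox7b and Cox8a had 3.12 and 2.56, and 13.9 and 21.9. In the deposited table of false discovery rates, 0% of the bases of the promoter window of Cox7b2 and Cox8c were listed under 0.05 in either library. For Cox4i2 the share was 0% in replicate 1 and 1.16% in replicate 2.

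Cox6a2, the heart and skeletal muscle form of subunit VIa, had 0 and 0.327, against 16.1 and 25.6 for Cox6a1. Its peak in replicate 2 was centred at −418.5 bp from the start and stood 37 steps high. Ndufa4l2, known as a target of hypoxia-inducible factor and as a gene of pericytes, had 0 and 0.750, against 7.90 and 14.1 for Ndufa4. A further peak lay outside the 1 kb window of Ndufa4l2, at chr10:127512921-127513100 in replicate 1, with a height of 7.92 and 12.9. It was centred at −1956.5 bp from the start in replicate 1 and −1966.5 bp in replicate 2, and the nearest protein-coding start was that of Ndufa4l2 itself. With a window of 2000 bp Ndufa4l2 therefore had 7.92 and 12.9, against 7.90 and 14.1 for Ndufa4, so that it was marginally higher in replicate 1. Cox8b, the heart and skeletal muscle form of subunit VIII, had 1.02 and 0, against 13.9 and 21.9 for Cox8a. That peak was centred 1128.5 bp after the start, inside the gene, and only its edge fell within 1 kb. Cox6b2, a testis form of subunit VIb, had a modest peak at its start in both libraries (2.04 and 3.49), against 4.81 and 9.60 for Cox6b1. In replicate 2 it was taller than the widely used Cox7b (2.56).

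Cox7a1 reached the largest share of its counterpart's height among the tissue-limited forms. This form of subunit VIIa, known from heart, skeletal muscle and brown fat, had 10.2 and 13.1, against 11.6 and 19.4 for its widely used counterpart Cox7a2. The mean was 11.7 ± 2.05 for Cox7a1 and 15.5 ± 5.53 for Cox7a2 (SD, n = 2). Cox7a1 minus Cox7a2 was −1.35 in replicate 1 and −6.28 in replicate 2, or −3.81 ± 3.49 (SD, n = 2). That SD holds the general shift between the libraries, so that it does not measure the spread of a difference within a library. Cox7a1 had 0.884 of the height of Cox7a2 in replicate 1 and 0.677 in replicate 2. The peak lay at chr7:30184021-30184240 in replicate 1, centred at −13.5 bp from the annotated start, and no start of another protein-coding gene lay within 1 kb of it. In rank, Cox7a1 stood at percentiles 77.4 and 72.0 of all protein-coding genes. Its promoter window is poor in CpG, with an observed over expected ratio of 0.333. Of 8059 genes with a CpG-poor window, 357 in replicate 1 (4.43%) and 506 in replicate 2 (6.28%) had a promoter as tall or taller. Only 3267 and 3381 of the 8059 had a promoter peak at all.

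**Figure D2:**
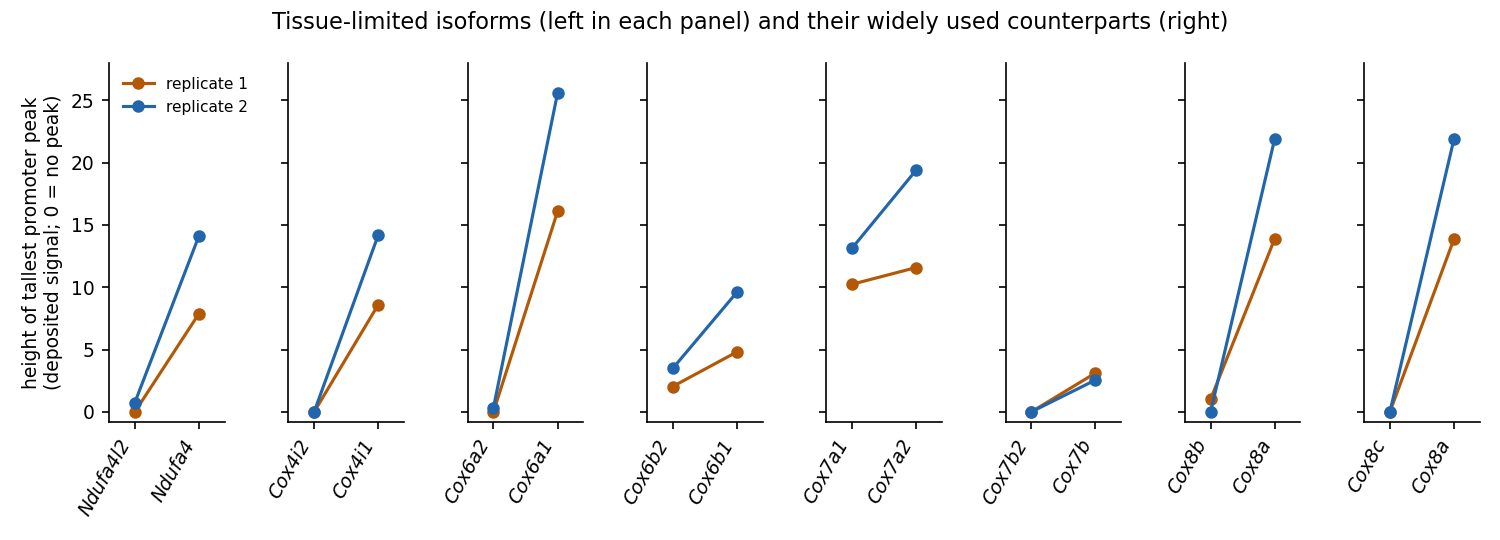
Height of the tallest promoter peak (deposited signal, linear axis, 0 where there was no peak) of each tissue-limited isoform on the left and its widely used counterpart on the right, joined within each library. Every line climbs to the right, and Cox7a1, at 10.2 and 13.1, reaches the largest share of its counterpart's height.

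The promoter windows of 2 pairs show the contrast in sequence. Cox7a1 (chr7:30183921-30184220, plus strand) and Cox8b (chr7:140900397-140900696, minus strand) are both CpG-poor, with ratios of 0.333 and 0.115, and Cox7a1 was open where Cox8b was not. Their counterparts Cox7a2 (chr9:79759804-79760103, minus strand) and Cox8a (chr19:7217567-7217866, minus strand) are CpG-rich, at 0.833 and 0.842. Capitals mark the TATA box letters in Cox8b and the ETS matches on the opposite strand of Cox8a, and the other windows held no NRF1, ETS, YY1, CRE, SF-1 and ERR or TATA box letters.
Cox7a1: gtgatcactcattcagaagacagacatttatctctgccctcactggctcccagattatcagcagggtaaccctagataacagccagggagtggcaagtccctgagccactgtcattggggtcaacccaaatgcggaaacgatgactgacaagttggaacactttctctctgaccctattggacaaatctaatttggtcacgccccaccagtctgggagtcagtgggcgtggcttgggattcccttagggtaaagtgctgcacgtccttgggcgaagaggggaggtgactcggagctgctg
Cox7a2: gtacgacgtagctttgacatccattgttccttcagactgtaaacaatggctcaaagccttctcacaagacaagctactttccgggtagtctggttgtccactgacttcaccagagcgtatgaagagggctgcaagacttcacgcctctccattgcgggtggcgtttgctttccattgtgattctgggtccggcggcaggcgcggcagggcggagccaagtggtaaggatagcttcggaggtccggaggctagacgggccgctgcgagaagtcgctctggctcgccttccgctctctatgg
Cox8b: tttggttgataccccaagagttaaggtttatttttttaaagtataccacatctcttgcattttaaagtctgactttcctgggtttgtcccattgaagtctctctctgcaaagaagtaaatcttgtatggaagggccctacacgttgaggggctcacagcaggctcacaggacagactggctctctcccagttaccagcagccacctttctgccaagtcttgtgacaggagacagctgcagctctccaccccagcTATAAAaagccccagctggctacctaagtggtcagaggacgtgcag
Cox8a: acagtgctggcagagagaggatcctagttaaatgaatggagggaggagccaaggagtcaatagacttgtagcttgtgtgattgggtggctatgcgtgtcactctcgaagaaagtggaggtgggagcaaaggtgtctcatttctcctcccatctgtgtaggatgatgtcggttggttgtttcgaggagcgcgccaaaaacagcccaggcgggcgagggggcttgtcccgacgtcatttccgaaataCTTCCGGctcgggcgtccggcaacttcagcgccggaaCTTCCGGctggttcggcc

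Markers of cells that use the tissue-limited forms were read in the same way. Over all protein-coding genes 68.6% and 69.6% had a promoter peak. The marker lists are short, and a count near that share says little about a cell type. Of 6 skeletal muscle genes 2 and 3 had a promoter peak, with medians of 0 and 0.287. Acta1, Myh4 and Myog, genes of muscle actin, fast myosin and the myogenic program, had none in either library, and Ckm, muscle creatine kinase, had 3.22 and 7.34. All 6 brown fat genes had a peak in each library, with medians of 1.00 and 1.12. Ucp1, which defines brown fat by uncoupling its mitochondria, had 0.411 and 0.724, and Elovl3 and Cidea, lipid genes of brown fat, 4.29 and 5.95, and 2.62 and 4.38. Of 4 white fat genes 3 had a peak in each library, with medians of 1.82 and 1.63. Adipoq was at 0 in both libraries, Fabp4 had 0.738 and 0.927, and Plin1 2.90 and 2.33. Lipe, a lipase that the steroid-making cortex also uses, had 12.3 and 20.7. The part of such cells in the Cox7a1 peak was not tested. For the testis forms, 1 and 0 of 6 genes of male germ cells had a peak. For Ndufa4l2, 6 of 7 pericyte genes had a peak in both libraries, with medians of 1.04 and 1.37. Of the markers of the labelled tissue, each of 6 genes of the steroidogenic cortex was open in both libraries (medians 6.46 and 10.6). The lowest of them was Cyp11b1 at 2.62 and 2.68, under the medians of all protein-coding genes. Of 5 chromaffin genes 4 and 5 were open (1.00 and 1.14). The chromaffin medians lay under those of all protein-coding genes (2.96 and 4.45) and near those of the brown fat and pericyte genes. Th, Dbh and Pnmt, enzymes of catecholamine synthesis, had 0.738 and 0.989, 1.00 and 1.14, and 0 and 0.662. The other chromaffin genes were higher, with Chgb at 10.4 and 17.0 and Chga at 2.17 and 6.40.

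Most peaks sat on the start site. The distance from the peak centre to the nearest own start had a median of 32.5 and 36.0 bp, against 65.5 and 64.5 bp for all genes with a peak. It was at most 100 bp for 61 and 60 genes, where 63.3% and 63.6% of all genes with a peak met that limit.

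Many respiratory chain genes shared their promoter peak with a neighbour. In each library 25 genes, the same ones, had a tallest peak within 1 kb of the start of another protein-coding gene, which is 35.2% and 34.7% of those with a peak, against 16.5% and 16.3% of all genes. In 24 of the 25 the neighbour lay on the other strand. The starts were 10 to 790 bp apart in replicate 1, with a median of 98 bp, and 22 of 25 pairs were within 200 bp. By group, sharing was seen in 12 of 29 accessory subunits, 4 of 8 assembly factors, 3 of 4 complex II genes, 3 of 8 complex III genes, 2 of 7 core subunits and 1 of 20 complex IV genes. Neighbours included other mitochondrial genes: Ndufs6 with Mrpl36 and Ndufb5 with Mrpl47, both mitochondrial ribosomal proteins, and Sdhd with Timm8b, a chaperone of protein import. Translation genes appeared as well, as Ndufa7 with Rps28 and Ndufs1 with Eef1b2. Cox4i1 was the complex IV gene, with Emc8 on the other side of the peak. The height of a shared peak cannot be divided between the 2 genes. Shared peaks of the respiratory chain had medians of 10.7 and 16.0 and unshared ones 10.6 and 14.9. Over all genes shared peaks were at 10.6 and 15.8 and unshared ones at 6.09 and 9.00.

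For 12 genes in replicate 1 and 10 in replicate 2 the start nearest to the peak centre was the neighbour's. That is 16.9% and 13.9% of those with a peak, against 8.23% and 8.15% of all genes with a peak. The 10 found in both were Ndufa2 (nearest Ik), Ndufa7 (Rps28), Ndufa11 (Vmac), Ndufa13 (Yjefn3), Ndufb3 (Fam126b), Ndufb11 (Rbm10), Ndufs3 (Kbtbd4), Ndufs6 (Mrpl36), Sdhd (Timm8b) and Uqcrh (Lrrc41). Ndufa1 (Rnf113a1) and Ndufaf8 (Tepsin) joined them in replicate 1. In 9 of the 12 the peak lay close to the gene's own start, the farthest centred at −151.5 bp (Ndufb11 in replicate 2), and Ndufa13, Ndufa11 and Uqcrh were the other 3. Ndufa13, an accessory subunit also known as GRIM-19, had its peak of 17.1 and 26.4 centred at −742.5 and −762.5 bp. The tallest peak nearest to its own start had 0 and 1.24. Ndufa11, a membrane arm subunit, had 10.7 and 15.0 at −766.5 and −786.5 bp, and 9.35 and 13.6 at the tallest peak nearest to its own start. Uqcrh, the hinge protein of complex III, had 10.7 and 16.7 at −369.5 bp in both libraries, and 6.32 and 10.8 nearest to its own.

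**Figure D3:**
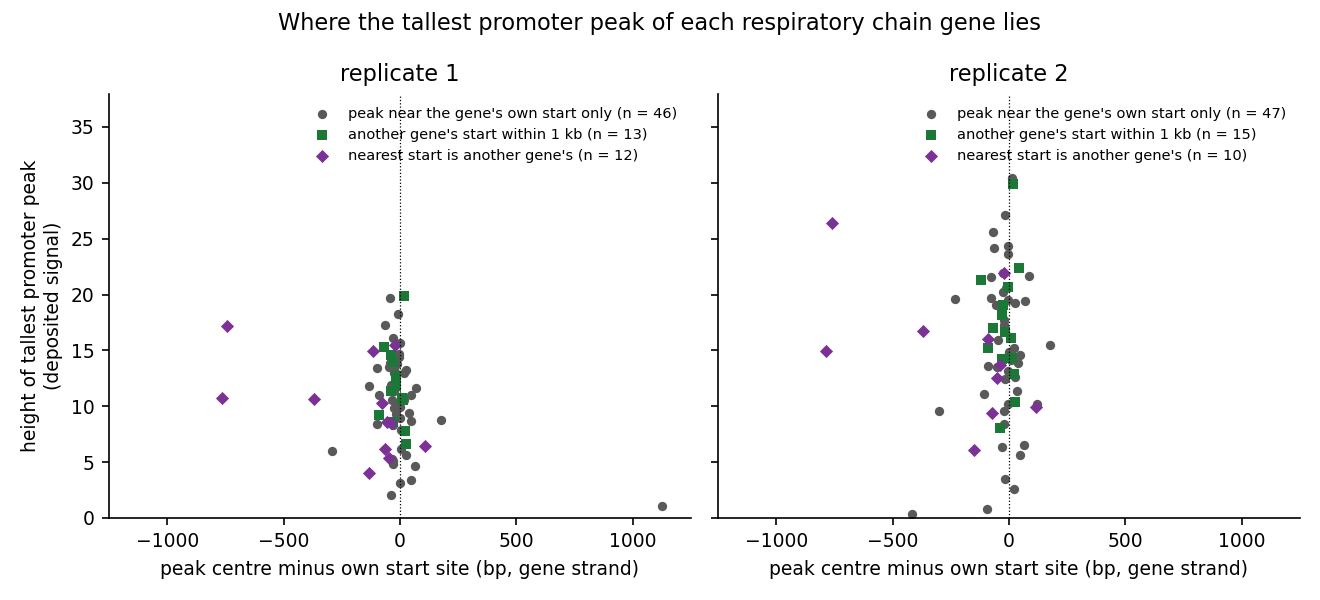
Height of the tallest promoter peak (deposited signal) of each respiratory chain gene with a peak against the distance of the peak centre from the gene's own start (bp along the gene strand), one panel per library. Colours and shapes separate peaks near the gene's own start only, peaks with another gene's start within 1 kb, and peaks nearest to another gene's start. Most points stand at the start, and Ndufa13 and Ndufa11 stand at −742.5 and −766.5 bp in replicate 1.

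Inside the peaks, footprints mark short stretches protected from cutting, as a bound protein leaves them. Every respiratory chain gene with a peak had at least 1 footprint in it, 71 and 72 genes, where 95.8% and 95.7% of all genes with a peak did. The median was 4 footprints in both libraries, as it was for all genes. Footprints covered a median of 33.3% and 37.0% of the peak, against 27.0% and 30.4% over all genes. The difference was not of 1 sign across heights. Genes with a peak were put in 4 bands of height with equal numbers of genes. In the lowest band, with 2 and 4 genes of the respiratory chain, footprints covered 11.1% and 21.5%, against 9.55% and 9.17% over all genes. In the second band they covered 25.2% and 27.2%, against 24.5% and 27.2%. In the third band (6.98 to 11.9 in replicate 1 and 10.2 to 17.7 in replicate 2) the medians for the respiratory chain were 36.9% and 37.5%, against 32.2% and 35.8% over all genes. In the top band they were 34.3% and 38.6%, against 37.1% and 40.0%. The most footprint bases were found in Ndufa11 (144 and 151), Uqcrq (112 and 162), Ndufs7 (103 and 155), Ndufa10 (126 and 127) and Ndufa13 (113 and 110). Ndufs7 reached its count through a peak of 280 bp in replicate 1 and of 560 bp in replicate 2, the widest among the 76 genes. Its window (chr10:80249199-80249498, plus strand) is shown for the match to the YY1 motif after the start, in capitals after an upstream match to the TATA box letters.
Ndufs7: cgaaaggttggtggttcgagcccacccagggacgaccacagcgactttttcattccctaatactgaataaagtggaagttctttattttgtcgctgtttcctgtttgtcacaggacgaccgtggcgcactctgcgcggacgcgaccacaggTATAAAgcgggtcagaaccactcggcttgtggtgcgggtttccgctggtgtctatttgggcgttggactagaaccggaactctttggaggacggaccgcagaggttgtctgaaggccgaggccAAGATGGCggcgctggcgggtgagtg

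The share of promoter window bases listed under a false discovery rate of 0.05 had a median of 44.3% and 45.5% for the respiratory chain, against 26.4% and 29.6% for all genes. Peaks inside the gene and away from any start were found in 25 and 31 of the 76 genes, where 57.5% and 59.0% of all genes had one. Per 100 kb of gene there were 5.25 and 7.12 such peaks, against 6.45 and 6.85 over all genes. Ndufaf2, a complex I assembly factor in a gene of 156 kb, had the most, at 10 and 16.

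Heights differed between the libraries mainly by a general shift. Of the 70 genes with a peak in both, 69 were higher in replicate 2, as were 96.4% of all genes. The median log2 ratio of replicate 2 to replicate 1 was 0.59 for the respiratory chain and 0.57 for all genes, a 1.49-fold general shift. After that shift was taken off, Cox7b deviated most, by −0.86, and it was the only gene of the 70 that was lower in replicate 2. Uqcrc2 followed with 0.44, Cox6b1 with 0.42, Ndufaf8 with −0.39 and Ndufs7 with −0.38.

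**Figure D4:**
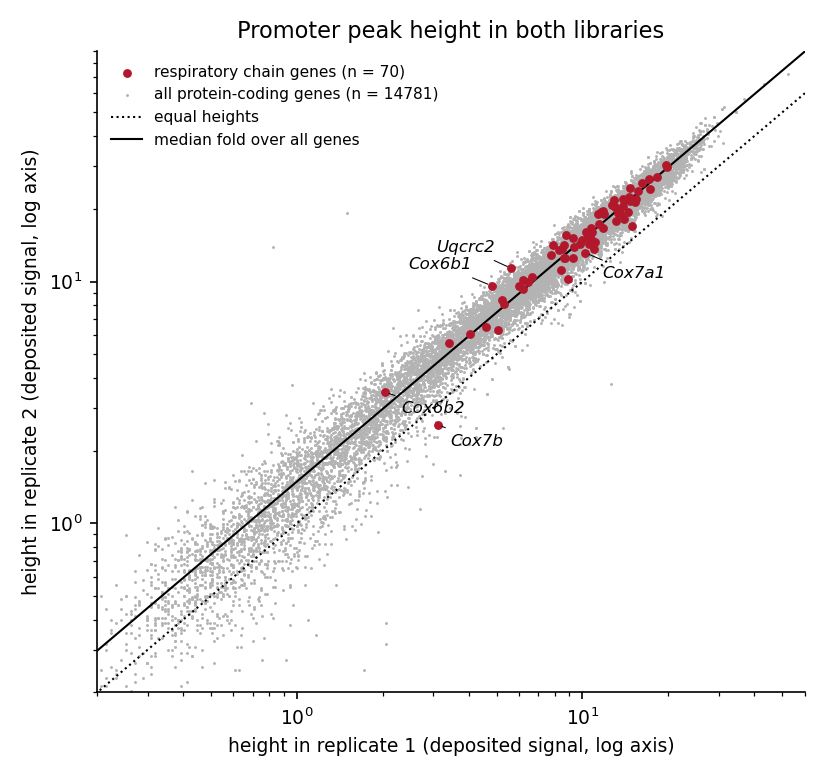
Height of the tallest promoter peak in replicate 2 against replicate 1 (deposited signal, log axes) for the 70 respiratory chain genes with a peak in both libraries, in red, over 14781 protein-coding genes, in grey. The dotted line marks equal heights and the solid line the median fold of 1.49. Red points follow the solid line, and Cox7b lies below the dotted line.

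Promoter windows of the respiratory chain were mostly rich in CpG. RefSeq windows (GRCm38.p6) were matched for 61 of the 76 genes. Among those without one are Cox4i1, Cox4i2, Cox6a2, Cox6c, Cox8c, Ndufa2, Ndufa4l2, Ndufaf6, Ndufb9, Ndufs1, Sdhc, Uqcrb, Uqcrc2 and Uqcrq. A CpG-rich window, with an observed over expected ratio of at least 0.6, was found for 49 of the 61 (80.3%, against 52.3% of 16882 genes). CpG-rich promoters of the respiratory chain had median heights of 11.4 and 17.0, against 8.99 and 13.5 for all CpG-rich promoters. The 4 tissue-limited forms with a window were all CpG-poor. Of the other 57 genes, 8 were CpG-poor, and these 8 had a peak in both libraries. With the 4 tissue-limited forms kept in, 11 and 10 CpG-poor genes of the respiratory chain had a peak (91.7% and 83.3%). Over all genes, tissue-limited ones included, 40.5% and 42.0% of the CpG-poor ones did. Sdhb was 1 of the 8 that are not tissue-limited, with a ratio of 0.571.

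Letters of 8 motifs were then searched on both strands of the windows, 63 for the respiratory chain and 20562 in all, since a gene can have several. The letters of NRF1 (GCGCATGC), a regulator of nuclear-encoded mitochondrial genes, were in 9 windows (14.3%, against 3.63% of all). The 9 genes were Ndufa6, Ndufa8, Ndufa11, Ndufaf4 and Ndufaf5 of complex I, Sdhb of complex II, Uqcr11 and Uqcrc1 of complex III and Cox6a1 of complex IV. Those of ETS factors (CCGGAAG), the family of the respiratory gene regulator GABP, were in 13 (20.6%, against 11.8%), and those of YY1 (AAGATGGC) in 8 (12.7%, against 3.08%). The cyclic AMP response element, CRE (TGACGTCA), was in 4 (6.35%, against 2.31%), and the half-site of SF-1 and ERR (CAAGGTCA), the nuclear receptors of steroid-making cells and of energy metabolism, in 2 (3.17%, against 1.25%), Ndufs5 and Sdhd. The letters of SP and KLF factors (GGGCGG, 47.6% against 47.5%), NFY (CCAAT, 39.7% against 38.1%) and the TATA box (TATAAA, 11.1% against 12.4%) were about as common in the respiratory chain as in all windows. NRF1 or ETS letters, or both, were in 19 windows (30.2%, against 14.7%), and Sdhb, Cox6a1 and Uqcr11 held both.

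Shares were also read within CpG-rich windows only, 51 for the respiratory chain and 10060 in all. Among CpG-rich windows ETS letters were in 19.6% of those of the respiratory chain and 19.7% of all. NRF1 (15.7% against 6.44%) and YY1 (13.7% against 4.99%) kept a higher share there, and SP and KLF letters were in 51.0% against 74.3%. In the respiratory chain all 8 YY1 matches lay 10 to 38 bases after the start on the gene's own strand, in Ndufa3, Ndufa9, Ndufaf8, Ndufb8, Ndufc1, Ndufs4, Ndufs6 and Ndufs7. Over all windows 40.4% of YY1 matches lay after the start on that strand. The 8 genes are 7 complex I subunits and the assembly factor Ndufaf8. Complex I also makes up most of the 76 genes, with 7 core subunits, 29 accessory subunits and 8 assembly factors.

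**Figure D5:**
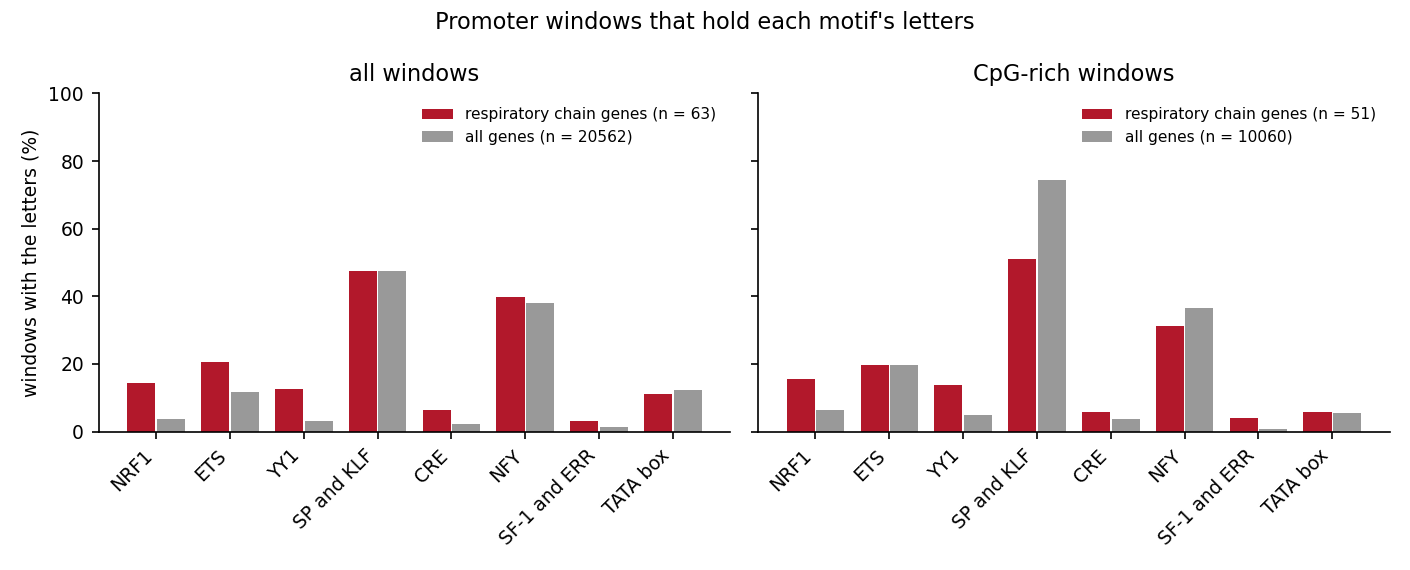
Share of promoter windows (%) that hold the letters of each motif, for all windows on the left and for CpG-rich windows on the right, with respiratory chain genes in red and all genes in grey. NRF1 and YY1 bars are higher for the respiratory chain in both panels, and the ETS bars are level in the CpG-rich panel.

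Matches were then set against the footprints, in windows touched by a peak. All 15 NRF1 matches, which include overlapping pairs on the 2 strands, touched a footprint in both libraries, where 91.6% and 92.0% of NRF1 matches over all genes did. Of 15 ETS matches 10 and 12 did (56.6% and 61.1% over all genes), of 8 YY1 matches 5 and 4 (45.6% and 52.2%), and of 4 CRE matches 3 and 3 (91.7% and 90.8%). The CRE and the NRF1 matches printed above for Uqcrfs1, Ndufa8, Sdhb and Cox6a1 each touched a footprint in both libraries. A match describes the letters of the reference assembly, and the alleles of the F1 hybrid glands were not read. Which protein left a footprint was not measured. In all, 24.0% and 26.6% of the bases of the open respiratory chain windows lay under footprints, against 18.2% and 19.6% of open windows over all genes.

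Genes that work with the chain were open as well. For comparison, 68.6% and 69.6% of all protein-coding genes had a promoter peak, and their median heights were 2.96 and 4.45. Among all genes with a peak the medians were 6.98 and 10.2. A peak was present in both libraries at all 17 ATP synthase genes, with medians of 11.5 and 14.0. All 12 citric acid cycle genes did too (13.5 and 20.9), and 23 of 24 assembly factors of complexes II to IV (9.56 and 13.8), Sdhaf1 being at 0. Cycs, the cytochrome c of most tissues, had 19.5 and 28.5 and Cyc1, the cytochrome subunit of complex III, 6.81 and 11.9, while the testis form Cyct had no peak. All 12 regulators had a peak (9.68 and 14.1). Esrra, which encodes the receptor ERR alpha, was the tallest of them at 27.8 and 44.4. Nrf1 had 9.10 and 13.8, Gabpa 8.96 and 12.5, and Yy1 16.7 and 24.0. The ATP synthase gene Atp5j had the same heights as Gabpa in both libraries, so that these may be of 1 shared peak. Ppargc1a, the coactivator that raises mitochondrial content in muscle and brown fat, was the lowest at 0.906 and 0.989, while its relatives Ppargc1b and Pprc1 had 7.10 and 12.0, and 7.41 and 11.4.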

How the data were processed

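DNase-seq of adrenal glands was analysed in 2 libraries of 1 group. The authors deposited, for each library, a pair of peak lists, a footprint list and a table of false discovery rates. Peak heights are a signal scaled by the authors before they deposited it; the scaling, the aligner and the peak caller were not given in the sources used here. Per the text deposited with each sample, each file came from that library's own alignments on mm10. The deposited p-value column of the footprint lists held the constant 0.01, and the deposited false discovery rates, which are p-value-like, are listed only under 0.05.

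The longer peak list was used. Start sites came from the GENCODE M21 basic annotation of GRCm38, with genes of 1 symbol merged. A peak counted for a gene when it overlapped the 1 kb around a start by at least 1 bp, and a footprint for a peak by at least 1 bp. Levels were compared as heights, not per length. Peak assignment was tested on simulated data. Motifs and CpG ratios were read from RefSeq promoter windows of GRCm38.p6, not from the alleles of the hybrid glands. The text names every isoform pair, the 2 tallest and 2 lowest genes of each group, genes lacking a peak or with a peak nearest another gene's start, and the 5 with the most footprint bases and the 5 with the largest replicate difference; other genes were named after their values were seen. Members and lists were chosen with earlier results of these data known. Alternatives were the shorter list, windows of 500 and 2000 bp, each library alone and peaks nearest to the gene's own start. Python 3.11.15, numpy 2.4.6, pandas 2.3.3 and matplotlib 3.10.9 were used. Values of 1 gene that entered the counts are not reported here.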

Additional observations from a re-analysis of the deposited data

How the results depend on the processing

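Of 114 recomputed values for 19 results, 111 moved by less than the spread between the libraries or, for counts, stayed within 1.5 times; for a library left out this holds by construction, since the value reported is a mean of 2. The median height of complex IV was 7.50 over the 2 libraries and 12.0 without the tissue-limited isoforms. The height of Ndufa4l2 minus that of Ndufa4 was -10.6 and came to -0.595 with a window of 2000 bp, through the peak about 2 kb upstream of Ndufa4l2. The median log2 ratio of the libraries over the respiratory chain was 0.593 and came to 0.0139 when heights were divided by each library's median over the genes with a peak in both, which takes off most of the general shift by construction. Restricting peaks to those nearest to the gene's own start left a mean of 65.5 genes with a promoter peak, against 71.5. Leaving out a library gave 71 and 72. No paired analysis was possible because the libraries form 1 group. The scaling of heights is unknown, so that no counting interval could be given, and heights near 0 rest on few steps.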

Other observations

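The X-linked genes of the respiratory chain were low, a pattern noticed after the values were seen. Ndufa1 had 5.33 and 8.05, Ndufb11 4.05 and 6.05, and Cox7b 3.12 and 2.56, and their median was 4.05 and 6.05, against 10.6 and 15.2 for the 73 autosomal genes. Among all protein-coding genes with a peak, X-linked ones had medians of 3.49 and 4.53, against 7.21 and 10.6 for autosomal ones. The peaks of Ndufa1 and Ndufb11 are shared with a neighbouring gene, and that of Cox7b is not.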
